A study of Caenorhabditis elegans with 2 samples.

Results

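The regions described here are NFYA-1 binding sites that lay inside introns of protein-coding genes, held a CCAAT box at the summit and lacked the same-strand pair of boxes whose starts are 32 bp apart. NFYA-1 is a subunit of NF-Y, the transcription factor that recognizes the sequence CCAAT, and its binding was measured in Caenorhabditis elegans embryos by chromatin immunoprecipitation and sequencing. A peak became a member by 3 conditions. Its summit lay in a coding-gene intron, outside exons of coding transcripts. The summit also lay outside the window 500 bp upstream to 100 bp downstream of any coding start. A CCAAT lay within 50 bp of the summit on either strand. No same-strand pair of boxes 32 bp apart lay within 150 bp of the summit. These conditions gave 317 members among 924 intron peaks (34.3%) and among 4084 peaks on the nuclear chromosomes (7.76%). Signal was not used to choose them.

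The study had 1 group of 2 biological replicates and no second condition, so members were compared with other classes of peaks. The strain was OP404, genotype unc-119(tm4063) III; wgIs404, whose integrated transgene expresses NFYA-1 with GFP and FLAG at its C terminus. Late embryos of hermaphrodites, of unknown age, were used whole, so all embryonic cell types were mixed, and binding of the tagged protein was read as binding of NFYA-1. By the sample descriptions the precipitation used an antibody against GFP, although the antibody entry of the labels reads nfya-1. The authors deposited a list of peaks that passed their reproducibility analysis, with 1 positive signal value per peak, on a scale that is not given. The longer lists per replicate held 21476 regions for replicate 1 and 28596 for replicate 2, and no read depth is known. Signal values of different lists come from separate calls and are compared only within a list.

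NF-Y is a complex of NFYA, NFYB and NFYC. NFYB and NFYC form a dimer that resembles histones, and NFYA brings the contact with CCAAT, a box found in many promoters. In C. elegans NFYA-1 has been studied as a repressor of the Hox gene egl-5 and of the T-box gene tbx-2. Introns can hold regulatory elements, starts of other transcripts, non-coding genes and copies of repeats, and the members were described with each of these in view.

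The sequences around the strongest members show how different the settings of a single CCAAT can be. The first set shows the 101 bases centred on the summit for the 8 strongest members that aligned to no other peak, leaving out 1 of the autosomes. CCAAT, or ATTGG where the box is on the other strand, is in capitals, and all sequences are the plus strand of WBcel235 as given by RefSeq. Their positions are chrX:6296501-6296601 for mom-1, chrII:12222718-12222818 for pqn-87, chrIII:5014069-5014169 for larp-1, chrIII:4131976-4132076 for unc-103, chrII:11747112-11747212 for gpb-1, chrIII:1921386-1921486 for pqn-41, chrV:8500525-8500625 for pxn-1 and chrV:19643156-19643256 for Y43F8C.7.
mom-1: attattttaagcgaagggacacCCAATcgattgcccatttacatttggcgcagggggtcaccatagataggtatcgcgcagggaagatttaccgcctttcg
pqn-87: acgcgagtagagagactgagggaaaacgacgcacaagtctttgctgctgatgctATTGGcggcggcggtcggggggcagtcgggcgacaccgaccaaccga
larp-1: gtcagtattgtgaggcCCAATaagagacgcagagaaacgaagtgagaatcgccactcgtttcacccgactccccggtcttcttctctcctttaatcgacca
unc-103: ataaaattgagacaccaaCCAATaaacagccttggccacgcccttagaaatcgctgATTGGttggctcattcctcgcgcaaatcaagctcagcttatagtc
gpb-1: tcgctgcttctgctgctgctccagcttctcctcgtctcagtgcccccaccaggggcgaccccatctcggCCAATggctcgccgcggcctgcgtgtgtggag
pqn-41: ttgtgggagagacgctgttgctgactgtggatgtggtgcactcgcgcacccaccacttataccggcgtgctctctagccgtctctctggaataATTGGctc
pxn-1: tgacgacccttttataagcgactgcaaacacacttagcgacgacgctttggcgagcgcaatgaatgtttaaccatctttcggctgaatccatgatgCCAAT
Y43F8C.7: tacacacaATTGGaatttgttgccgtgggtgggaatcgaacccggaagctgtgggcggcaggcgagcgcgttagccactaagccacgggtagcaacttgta
Of these windows, the one in unc-103 holds a box on each strand, and each of the others holds 1 box.

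The second set shows, again leaving out that autosome, the 3 strongest members with at least 2 boxes near the summit, at chrIV:1861108-1861208 in egl-4, chrIV:15049828-15049928 in srt-47 and chrII:341412-341512 in clc-31. Boxes are again in capitals.
egl-4: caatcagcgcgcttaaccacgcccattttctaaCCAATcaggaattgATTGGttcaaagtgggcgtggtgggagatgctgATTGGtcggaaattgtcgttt
srt-47: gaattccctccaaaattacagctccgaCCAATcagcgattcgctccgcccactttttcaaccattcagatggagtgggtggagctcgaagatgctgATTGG
clc-31: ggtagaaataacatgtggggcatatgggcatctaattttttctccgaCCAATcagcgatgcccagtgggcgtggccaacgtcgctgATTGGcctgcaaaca
In each of them a CCAAT on the plus strand precedes an ATTGG, so the boxes face each other, and most boxes run on into CAG. This arrangement, called a convergent pair below, recurred in many members.

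The convergent pair was most often found at 2 distances, counted between the starts of the boxes on the plus strand. Convergent pairs 39 bp apart occurred in 46 members and pairs 36 bp apart in 32 members. Distances of 35, 37, 38, 40 and 41 bp occurred in 5, 10, 8, 11 and 4 members. In all, 112 members (35.3%) held a convergent pair with starts 35 to 40 bp apart, a range chosen after the distances were seen. Where no distance is given below, a convergent pair means one in this range. Members whose facing boxes lay only at other distances, as in egl-4 and srt-47, count as having another arrangement. Convergent pairs near 68 bp apart formed a smaller second group, with 6, 12, 8, 5 and 5 members at 67, 68, 69, 70 and 71 bp. Same-strand pairs 31, 33 and 34 bp apart, next to the distance that the choice of members removed, occurred in 11, 9 and 13 members.

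The strongest convergent pairs, leaving out the same autosome, are shown because the stretch between the boxes differs with the distance. Pairs 39 bp apart come first, from chrII:341456-341505 in clc-31, chrIV:14119489-14119538 in nkcc-1, chrIII:84550-84599 in attf-3, chrIII:2794227-2794276 in twk-45 and chrII:11899904-11899953 in vab-23, with the boxes in capitals.
clc-31: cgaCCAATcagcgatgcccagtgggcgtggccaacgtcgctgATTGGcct
nkcc-1: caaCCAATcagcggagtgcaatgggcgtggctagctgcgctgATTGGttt
attf-3: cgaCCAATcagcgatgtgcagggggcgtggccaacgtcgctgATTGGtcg
twk-45: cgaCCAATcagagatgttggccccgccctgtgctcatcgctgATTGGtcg
vab-23: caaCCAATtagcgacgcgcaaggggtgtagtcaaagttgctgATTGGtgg
Pairs 36 bp apart follow, from chrIII:3798620-3798666 in mtm-3, chrII:12790498-12790544 in cpt-1, chrV:16812521-16812567 in cand-1 and chrIV:14547515-14547561 in T27E7.9.
mtm-3: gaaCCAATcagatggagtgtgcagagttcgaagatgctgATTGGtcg
cpt-1: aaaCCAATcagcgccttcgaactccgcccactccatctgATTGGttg
cand-1: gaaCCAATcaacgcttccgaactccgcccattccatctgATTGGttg
T27E7.9: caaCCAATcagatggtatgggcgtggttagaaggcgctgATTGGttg
Between the boxes, CCACGCC on either strand was present in 26 of the 46 members with a pair 39 bp apart, and in 2 of the 32 with a pair 36 bp apart. CCGCCC on either strand was present in 4 of the 46 and in 19 of the 32. Both motifs were picked after these sequences had been read, and many of the sequences are related copies, so the counts are descriptions.

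Convergent pairs were also counted in all intron sequence, whether or not a peak was there, leaving out those with a 32-bp pair within 150 bp. Of 102 convergent pairs 39 bp apart, 49 had a peak summit within 100 bp (48.04%, 95% Wilson interval 38.6 to 57.6). Of 71 pairs 36 bp apart, 35 had one (49.3%, interval 38.01 to 60.7). The shares were 16.2% of 37 pairs 35 bp apart, 18.9% of 53 pairs 37 bp apart, 17.3% of 52 pairs 38 bp apart and 28.9% of 38 pairs 40 bp apart. Outside this range they were 21 of 377 pairs 25 to 34 bp apart (5.57%) and 13 of 352 pairs 41 to 50 bp apart (3.69%), with single distances as high as 17.1% of 41 pairs at 30 bp, and 24% of 50 pairs at 68 bp. The share also differed by orientation. At 35 to 40 bp apart, 120 of 353 convergent pairs were at a peak (33.99%, interval 29.2 to 39.1), against 0 of 194 divergent pairs, which allows a share of up to 1.94% by the Wilson interval, and 9 of 652 same-strand pairs (1.38%). Of all 63791 boxes in introns, 1000 had a summit within 50 bp (1.57%), a shorter distance than that used for pairs. Intervals cover counting error over sites only, and related copies are not independent.

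The bases after the boxes went with the share at a peak too. Among convergent pairs 35 to 40 bp apart, 54 of 265 were at a peak where neither box was followed by CAGCG (20.4%, interval 15.97 to 25.6). Where 1 box was followed by CAGCG it was 55 of 75 (73.3%, interval 62.4 to 82.02), and where both were it was 11 of 13 (84.6%, interval 57.8 to 95.7). CAGCG was chosen after sequences of members had been read, and many pairs at a peak lie in those members. Related copies are not independent either, so these shares are descriptions without a test. In the longer list called on pooled replicates, 52 of the 102 pairs 39 bp apart (50.98%) and 44 of the 71 pairs 36 bp apart (61.97%) had a summit. In the same longer list 23 of 352 pairs 41 to 50 bp apart (6.53%) had one. Both lists were made from the same 2 replicates, so these shares are not independent of those in the peak list.

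**Figure D1:**
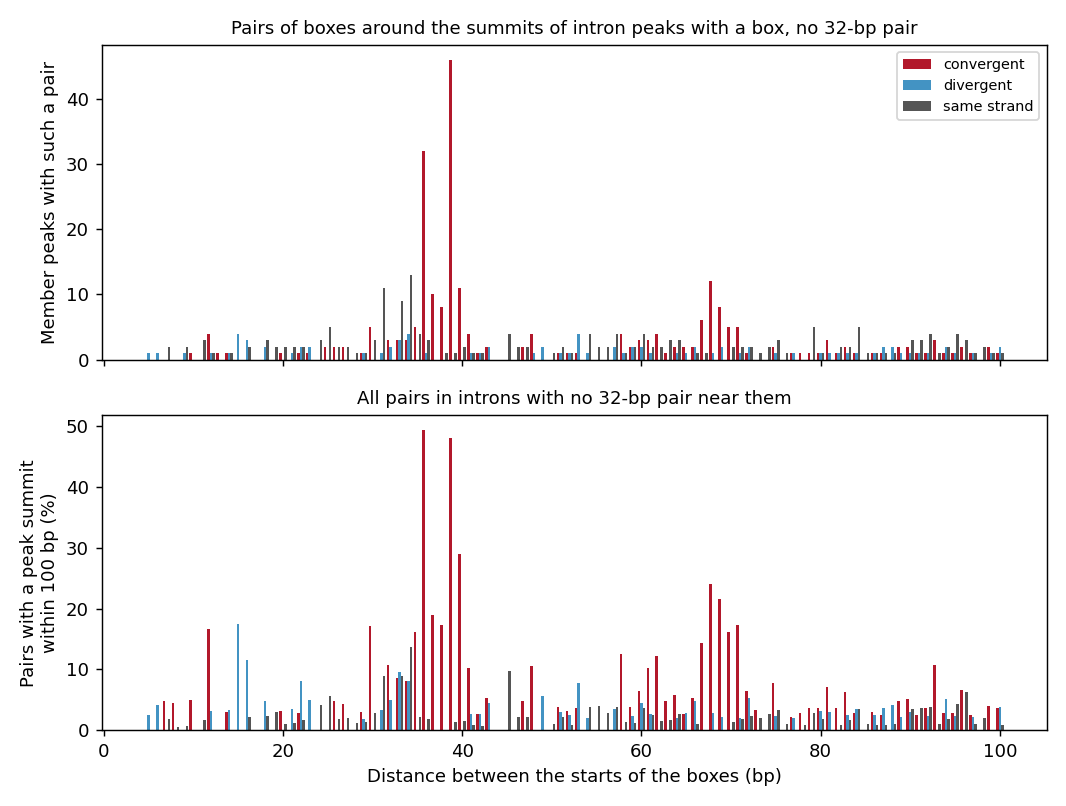
The upper panel gives the number of members with a pair of boxes at each distance between box starts (bp), by orientation, and the lower panel gives the share (%) of all intron pairs, with no 32-bp pair near them, that had a peak summit within 100 bp. Convergent pairs stand out at 36 bp (32 members, 49.3%) and 39 bp (46 members, 48.04%).

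The choice of members placed a box within 50 bp of every summit, so the distances within that limit are a description. Of the members, 154 held 1 box within 50 bp, 132 held 2, 26 held 3 and 5 held 4. The middle of the nearest box was a median of 14 bp from the summit in members, against 18 bp from the middle of windows of the same width taken 500 bp to either side that held a box. It was within 10 bp of the summit in 112 members, 11 to 20 bp away in 122, 21 to 30 bp in 32, 31 to 40 bp in 35 and 41 to 50 bp in 16. The limit of 50 bp is a convention of the choice. The 25 members just inside it, with the box 39 to 48 bp away, had a median signal of 104 (range 59.2 to 318), and the 22 intron peaks just outside it, at 49 to 58 bp, had a median of 84.1 (range 60.3 to 259). The nearest box pointed the same way as the host gene in 162 of 314 members (51.6%, interval 46.1 to 57.1), so neither orientation prevailed.

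**Figure D2:**
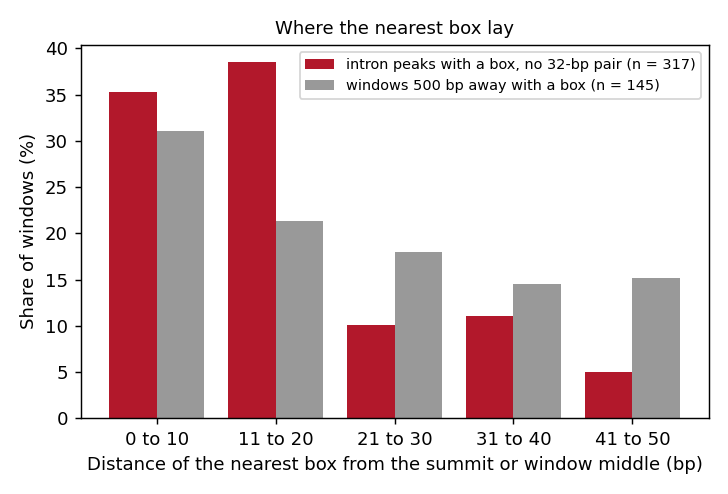
Bars give the share (%) of windows by the distance (bp) of the nearest box from the summit of members or from the middle of windows 500 bp away that held a box. Members had 122 of 317 nearest boxes at 11 to 20 bp, the fullest bin.

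The flanks of the box differed from those of boxes 500 bp away, which can lie in the same intron, in an exon or beyond the gene. An extended box, meaning a purine at both positions before CCAAT, then C or G, then a purine, was the nearest box in 176 of 317 members (55.5%, interval 50.02 to 60.9), against 17 of 145 boxes in the windows 500 bp away (11.7%, interval 7.45 to 17.97). By the two-sided Fisher's exact test the adjusted p was 9.67e-20, after Benjamini-Hochberg adjustment over the 6 comparisons between classes, with an odds ratio of 9.40 (Woolf interval 5.41 to 16.3). Tests over peaks treat them as independent, which peaks in 1 gene or of similar sequence are not. Single positions differed in the same direction: A stood just before the nearest CCAAT in 62.5% of members and 35.2% of the other boxes, and CA just after it in 54.6% of members and 10.3% of the other boxes. The nearest CCAAT was followed by CAGCG in 75 members (23.7%, interval 19.3 to 28.6), and so were 3 of the 145 other boxes (2.07%). Boxes further from the summit were not counted here.

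The share with an extended box also differed by arrangement, again without a test. It was present in 94 of the 112 members with a convergent pair (83.9%, interval 76.02 to 89.6), in 61 of 114 with 2 or more boxes within 150 bp in another arrangement (53.5%, interval 44.4 to 62.4), and in 21 of 91 with 1 box within 150 bp (23.1%, interval 15.6 to 32.7). In the single-box members the nearest CCAAT was more often followed by GA or GG (24.2%) than by CA (15.4%), whereas 87.5% of convergent-pair members had CA there. Of 135 members in a single family of similar peaks, described below, 122 had an extended box (90.4%) and 87 a convergent pair.

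Among short motifs in the 101-bp windows, searched on both strands, CCACGCC was present in 64 members (20.2%), against 0.789% of windows 500 bp away and 4.53% of all nuclear peaks. CCGCCC was present in 74 members (23.3%), against 3.31% of windows 500 bp away and 14.9% of all nuclear peaks. CCACGCC and CCGCCC do not contain each other, though both often lie between the boxes of a pair. Intron peaks without CCAAT, here and below, are those with no box within 50 bp of the summit. CTCTCTC was present in 21 members (6.62%), against 2.05% of windows 500 bp away, 81 of the 418 intron peaks without CCAAT (19.4%) and 14.8% of all nuclear peaks. It was present in 17.6% of single-box members and 0.893% of convergent-pair members. GCGCGC was present in 5.36% of members and 6.46% of intron peaks without CCAAT. GC content was 47.8% ± 5.85 in members and 48.7% ± 7.36 in intron peaks without CCAAT, against 36.5% ± 8.70 in windows 500 bp away from the member summits (SD over 317, 418 and 634 windows).

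The signal of members ranged from 58.2 to 696 with a median of 124 (95% interval of the median 110 to 134), against a median of 96.5 (90.8 to 100.4) in the 418 intron peaks without CCAAT. For other classes the medians were 183 in 189 intron peaks with a box and a 32-bp pair, 115 in 266 peaks with a box at the promoter of a single gene and no such pair, and 109 over all nuclear peaks. Of the members, 178 (56.2%) were in the upper 50% of the peak list by signal, against 171 of the 418 intron peaks without CCAAT (40.9%). By Fisher's exact test the adjusted p was 8.21e-05, with an odds ratio of 1.85 (interval 1.38 to 2.49). Without peaks that aligned to any other peak the shares were 45.8% of 155 members and 36.9% of 301 peaks without CCAAT, and the call was lost (exact test, adjusted p = 0.209). It was also lost without peaks that held a convergent pair, at 47.3% of 205 members and 40.6% of 416 peaks (exact test, adjusted p = 0.242). With a box allowed within 100 bp of the summit the shares were 50.5% of 396 members and 44.2% of 337 peaks, and the call was lost as well (exact test, adjusted p = 0.154).

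Within the members, the signal differed by the arrangement of the boxes; as the convergent class was defined after the data were seen, these values are a description without a test. Members with a convergent pair had a median of 155 (interval 136 to 188), those with other arrangements of 2 or more boxes 114 (96.4 to 131), and those with 1 box within 150 bp 96.7 (80.3 to 115). The single-box median was close to that of intron peaks without CCAAT, some of which held a box further than 50 bp from the summit. The ranges overlapped widely, at 59.9 to 546, 58.9 to 696 and 58.2 to 524, so arrangement did not fix the signal of a given peak. The upper 50% of the list held 72.3% of convergent-pair members, 51.8% of members with another arrangement and 41.8% of single-box members. A single family of 555 peaks of similar sequence, described below, held 87 of the 112, 43 of 114 and 5 of 91 members of these classes. Its 135 members had a median of 158 (interval 141 to 178). Arrangement and family thus largely went together, and the signal was not separated by one from the other.

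**Figure D3:**
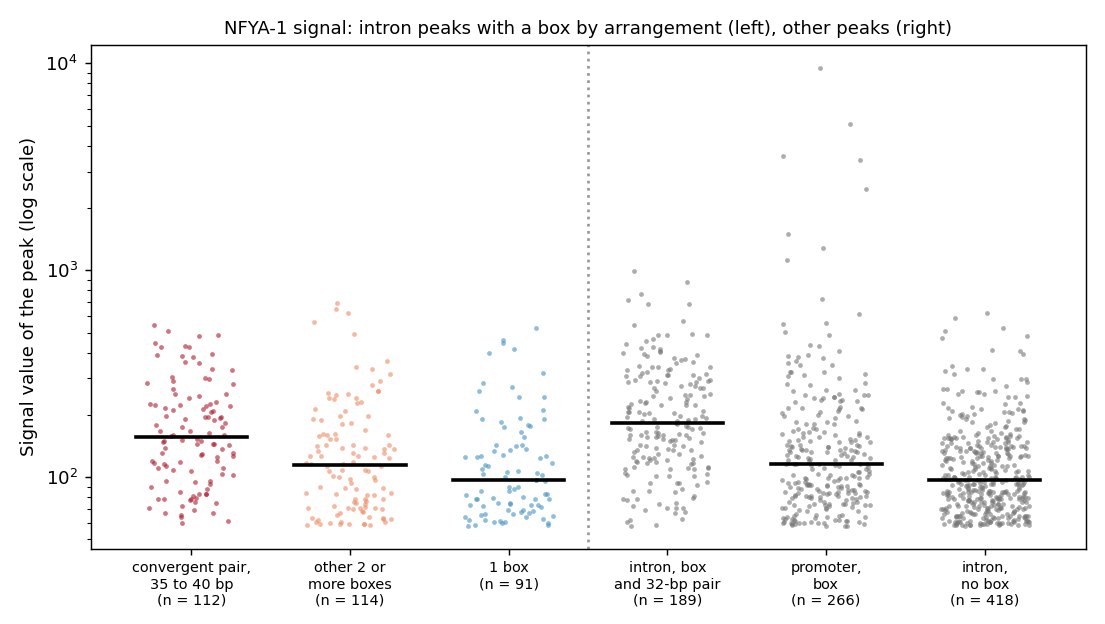
Each point is the signal of 1 peak on a log scale, with black lines at medians, for members by arrangement of boxes on the left and for other classes of peaks on the right. Members with a convergent pair have a median of 155, single-box members 96.7 and intron peaks without a box within 50 bp 96.5.

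The 2 replicates gave similar orders of the members. A region of the replicate 1 list held the summit of 315 members, and a region of the replicate 2 list that of 312, with 310 in both. Across these 310 members, Spearman's rank correlation between replicates was 0.849 and Pearson's r of log10 signal 0.848. These are correlations across peaks of 1 strain, which were chosen for reproducibility, and carry no test. The median signal was 63.6 in replicate 1 (range 16.6 to 341) and 58.4 in replicate 2 (range 8.80 to 356). The summit lay in one of the strongest regions of both replicates, taking as many regions of each as the peak list holds, for 252 members (79.5%, interval 74.7 to 83.6), against 313 of the 418 intron peaks without CCAAT (74.9%, interval 70.5 to 78.8). Over all nuclear peaks the share was 79.1%, so the members were near the background, and their difference from intron peaks without CCAAT did not pass the threshold (Fisher's exact test, adjusted p = 0.189, with an odds ratio of 1.30 and an interval of 0.916 to 1.85). It did pass when summits had to lie within 50 bp of each other, at 71.9% of members and 57.7% of peaks without CCAAT (exact test, adjusted p = 9.01e-05). The peak list was itself made from both replicates, so these shares are not independent of it. A further 60 members were among the strongest of 1 replicate only and 5 of neither.

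**Figure D4:**
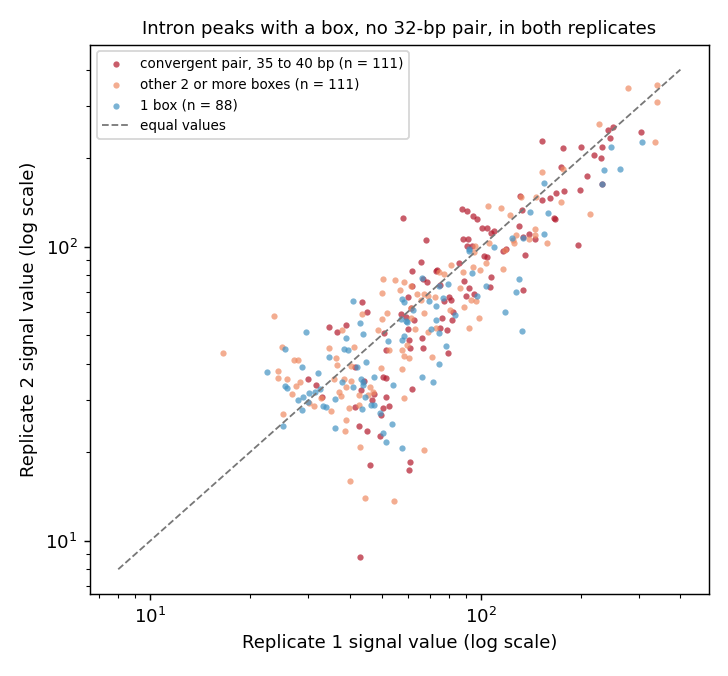
Each point is a member found in both replicate lists, with its replicate 1 signal across and its replicate 2 signal up (both log scales), coloured by arrangement of boxes; the dashed line marks equal values. The points form 1 cloud along the line, with a rank correlation of 0.849 over 310 members.

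The strongest members were in genes of many kinds. The strongest described here was in intron 1 of sem-4, which encodes a zinc finger transcription factor of neuron and muscle fates, with 647 in the peak list, 340 in replicate 1 and 310 in replicate 2. The next was in intron 2 of egl-4, the cGMP-dependent protein kinase, with 624 in the peak list, 279 in replicate 1 and 347 in replicate 2. These 2 ranked between 38 and 83 in each replicate, so both replicates placed them high. The peak list was made from both replicates, so its value is not a further independent reading.

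They were followed by srt-47, of the serpentine chemoreceptor families, with 562 in the peak list, 336 in replicate 1 and 226 in replicate 2, and clc-31, with 546 in the peak list, 304 in replicate 1 and 245 in replicate 2. A peak in the last intron of mom-1, the Porcupine-type acyltransferase needed for Wnt secretion, had 524 in the peak list, 307 in replicate 1 and 226 in replicate 2. It was the strongest member with a single box within 150 bp, and it lay 26 bp from its box and 3439 bp from the nearest start of its gene. The peak in mtm-3, a myotubularin lipid phosphatase gene, had 507 in the peak list, 251 in replicate 1 and 256 in replicate 2. These peaks were thus high in both replicates, with srt-47 ranked 57 in replicate 1 and 113 in replicate 2.

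The rest of the 15 strongest had signals of 425 to 492. They lay in Y75B8A.19 (492), nkcc-1 (488), which encodes a cation chloride cotransporter, golg-4 (481), Y41G9A.17 (460), lev-11 (447), the tropomyosin gene, cpt-1 (446), a carnitine palmitoyltransferase gene, phlp-2 (431), a phosducin-like protein gene, and attf-3 (425). Each of these 8 was also among the strongest regions of both replicates. Of the 100 strongest peaks of the list 9 were members, near the 7.76% of all nuclear peaks that were members.

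Some genes held several members. There were 283 host genes, of which 27 held 2 or more members and together 58 members. The potassium channel gene unc-103, of the ERG family, held 4 members spread over 24094 bp, with signals of 384, 195, 194 and 71.6, and the 3 stronger ones each had a convergent pair. In sem-4 the strong peak (647) was accompanied by one of 107 in the same intron. The other hosts with the highest summed signal were golg-4 (481 and 210), cand-1 (379 and 215), which encodes a regulator of cullin ubiquitin ligases, and mtm-3 (507 and 74.7). The pair in cand-1 lay only 524 bp apart in a single intron. In these genes the members were of unequal strength.

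The share of members in first introns did not differ detectably from that of intron peaks without CCAAT. First introns held 98 of 317 members (30.9%, interval 26.1 to 36.2), against 145 of the 418 intron peaks without CCAAT (34.7%, interval 30.3 to 39.4), and 23.9% of all intron bases. By Fisher's exact test the adjusted p was 0.304, with an odds ratio of 0.843 (interval 0.617 to 1.15). In intron peaks with a box and a 32-bp pair the share was lower, at 28 of 189 (14.8%, interval 10.5 to 20.6), without a test. Members aligned to no other peak were in the first intron in 39.4% of 155 cases (interval 32.01 to 47.2), and members aligned to another peak in 22.8% of 162 (interval 17.05 to 29.9). The direction against intron peaks without CCAAT turned without aligned peaks, at 39.4% of members and 38.5% of the others (exact test, adjusted p = 0.919).

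Host introns of members had a median length of 1231 bp, against 2819.5 bp for intron peaks without CCAAT. Introns of 5000 bp or more held 18.2% of members, 32.5% of peaks without CCAAT and 12.9% of intron bases. The median distance from a member to the nearest start of its gene was 1610.5 bp, and 99 members lay within 1000 bp of one. Members with a convergent pair were in introns of a median of 644 bp, those with another arrangement 1409.5 bp and single-box members 2643 bp, so the single-box members sat in introns about as long as those of peaks without CCAAT. These classes also differed in membership of the family of 555 peaks, from which intron length was not separated. For 3 members the summit lay outside every annotated intron of a coding transcript, and 5 lay inside 2 or more coding genes.

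**Figure D5:**
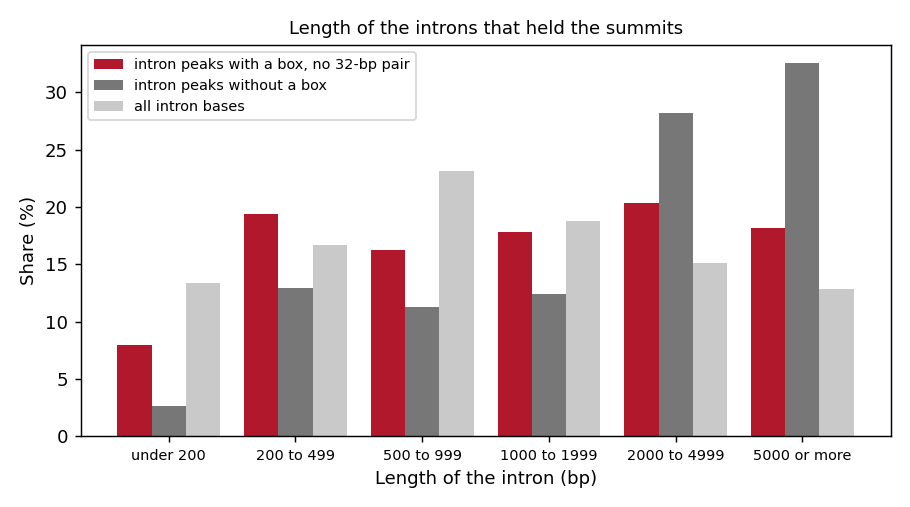
Bars give the share (%) of members, of intron peaks without a box within 50 bp of the summit and of all intron bases by length of the intron (bp). Introns of 5000 bp or more hold 18.2% of members, 32.5% of intron peaks without such a box and 12.9% of intron bases.

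The X chromosome had the fewest members, a difference that was read from the counts and not tested. It held 24 members, or 4.75 per Mb of intron, against 8.58 to 16.4 per Mb on the autosomes, with chromosome III highest at 81 members. Intron peaks without CCAAT were not sparse there, at 15.4 per Mb on X and 6.98 to 17.95 per Mb on the autosomes. None of the 112 members with a convergent pair was on X, nor was any of the 189 intron peaks with a 32-bp pair. Introns of X held 24 convergent pairs 35 to 40 bp apart, and 0 of them were at a peak (interval up to 13.8%), against 28.6% to 43.4% of the 56 to 76 such pairs on each autosome. In none of the 24 was a box followed by CAGCG, and 8 of the 24 were 36 or 39 bp apart. On the autosomes 54 of 241 pairs with no box followed by CAGCG were at a peak (22.4%, interval 17.6 to 28.1), and 66 of 88 pairs with at least 1 such box. Of the 24 members on X, 15 had a single box, and mom-1 (524) was the strongest.

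Many members aligned to other peaks in sequence. A summit inside soft-masked repeat sequence or a window aligned to another peak was found for 179 members (56.5%), against 154 of the 418 intron peaks without CCAAT (36.8%). By Fisher's exact test the adjusted p was 3.001e-07, with an odds ratio of 2.22 (interval 1.65 to 2.996). This call was lost without peaks that held a convergent pair, at 42.4% of members and 36.5% of the others (exact test, adjusted p = 0.242). Of the members, 162 aligned to at least 1 other peak, in 14 families, and 135 of these belonged to a single family of 555 peaks. Windows of neighbouring peaks can overlap in the genome, and such peaks can count as aligned without being copies of each other. In 1 host, for example, 2 members lay 202 bp apart. How many alignments were of this kind was not counted. The aligned members had a median signal of 144 (interval 128 to 160), an extended box in 77.8% and a convergent pair in 54.3%. The 155 members aligned to no other peak had a median of 103 (interval 87.8 to 115), an extended box in 32.3% and a convergent pair in 15.5%. The extended box remained more frequent than in the windows 500 bp away when aligned peaks were left out (exact test, adjusted p = 0.000249). A box was also within 50 bp of the summit in 158 of 459 intron peaks aligned to no other peak (34.4%, interval 30.2 to 38.9), against 159 of 918 windows 500 bp away (17.3%, interval 15.01 to 19.9).

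Small non-coding genes lay near a smaller share of members than of intron peaks without CCAAT. One was within 200 bp of the summit for 56 members (17.7%, interval 13.9 to 22.2), against 152 of the 418 intron peaks without CCAAT (36.4%, interval 31.9 to 41.1). By Fisher's exact test the adjusted p was 4.99e-08, with an odds ratio of 0.375 (interval 0.264 to 0.533). Transfer RNA genes were nearest for 8 members and 42 peaks without CCAAT, and genes annotated only as ncRNA for 31 members and 89 peaks without CCAAT. Small nucleolar RNA genes were nearest for 8 members and 15 of the other peaks, and piRNA genes for 8 members and 3 of the other peaks. Without peaks aligned to another peak the shares were 22.6% and 25.6%, and the call was lost (exact test, adjusted p = 0.765). The strongest members with such a neighbour were in nkcc-1 (488, a piRNA gene 63 bp away), pqn-87 (415, an ncRNA gene at the summit) and gpb-1 (340, an ncRNA gene 102 bp away).

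Host genes were then read by lists of gene functions, without a test. A host in any of 16 lists held 69 members (21.8%), against 23.4% of intron peaks without CCAAT and 16.9% of intron bases. Among regulators of transcription, 1 member was in a Hox gene, in intron 3 of mab-5, which patterns the posterior body, with a signal of 208 in the peak list, 109 in replicate 1 and 99.9 in replicate 2. Other homeobox genes held 6 members (1.89%), against 0.239% of peaks without CCAAT and 0.779% of intron bases. They included a pair of members in zfh-2 (278 and 131), 1 in vab-3, the Pax6 gene (197), and 1 in zag-1, the ZEB gene (188). None of the 6 had a convergent pair or aligned to another peak.

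The list of basic helix-loop-helix, forkhead, T-box, SOX and GATA genes held 7 members (2.21%), against 2.15% of peaks without CCAAT and 0.661% of intron bases. The GATA factor gene egl-18, which acts in seam cells, had 315 and 136, elt-1, the GATA factor of epidermal fate, had 108, and hlh-30, the TFEB gene, had 107 and 67.3. Zinc finger, bZIP and ETS genes held 6 (1.89%, against 1.67% and 0.909%), in sem-4, in skn-1, the Nrf-type factor of stress responses and of early endoderm (192 and 74.0), and in sma-9, the Schnurri gene (87.5), among others. Nuclear hormone receptor genes held 3 (0.946%, against 2.15% and 1.48%), at nhr-130 (84.8), nhr-157 (78.6) and daf-12 (67.6), the steroid receptor of dauer formation. The intervals of all these shares overlapped those of the peaks without CCAAT, which does not show that the shares are equal.

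Neuronal and muscle genes were next. Ion channel and transmitter receptor genes held 11 members (3.47%), against 1.20% of peaks without CCAAT and 3.78% of intron bases, and 9 of the 11 had a convergent pair. They were led by the potassium channel genes twk-45 (389), unc-103 and twk-2 (206, 108 and 78.04). Synaptic vesicle and neuropeptide genes held 5 (1.58%, against 1.44% and 1.04%), led by the neuropeptide gene flp-9 (150), the dense-core vesicle release gene unc-31 (130) and nlp-46 (110). Muscle genes held 5 (1.58%, against 0.957% and 0.684%), led by lev-11, the degenerin channel gene unc-105 (183) and ketn-1, the kettin gene (144), and none had a convergent pair. Axon guidance and cell adhesion genes held 2 (0.631%, against 1.91% and 1.65%), at the cadherin gene cdh-9 (60.7) and the ankyrin gene unc-44 (59.2).

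Signalling genes of the Wnt, Notch, TGF-beta, Ras and insulin pathways held 10 members (3.15%), against 4.07% of peaks without CCAAT and 1.56% of intron bases. The strongest were in mom-1, in daf-5 (220 and 125), which encodes a Sno/Ski protein of the TGF-beta pathway of dauer formation, and in daf-2, the insulin receptor gene (129 and 97.9). RNA-binding and splicing genes held 5 (1.58%, against 0.718% and 0.633%), at larp-1 (398), the Musashi gene msi-1 (196) and ain-2 (118), a GW182-type gene of microRNA silencing, among others. Histone modifier and chromatin genes held 3 (0.946%, against 2.87% and 0.893%), at lin-59 (332), hda-10 (108) and egl-27 (66.3).

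Epidermis, cuticle and junction genes held 3 (0.946%, against 3.59% and 1.11%), at the collagen gene col-52 (159), elt-1 and rol-3 (108). Small GTPase and cytoskeleton regulators held 3 (0.946%, against 1.44% and 1.17%), among them the dynein heavy chain gene dhc-4 (318) and the doublecortin-type kinase gene zyg-8 (145). Ribosomal protein and translation factor genes held 1 (0.315%, against 0% and 0.304%), at eif-3.I (64.1). Chaperone and protein folding genes held 0 members, which allows a share of up to 1.20% by the Wilson interval, against 0.718% of peaks without CCAAT. In all 16 lists the Wilson interval of the members' share overlapped that of the peaks without CCAAT. Overlap of intervals does not show that shares are equal, and differences were not tested.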

How the data were processed

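NFYA-1 binding was measured in 2 biological replicates of 1 strain, taken as 1 group. The authors deposited peak lists with a positive signal value per region, on a scale that is not given. Per the listings deposited with them, the peak list passed a reproducibility analysis (IDR) of the replicates and was called with a control, and longer lists were called per replicate and on pooled replicates. The sources used here name no aligner, caller or threshold, and reads were left out, so depth is unknown. The labels call the replicates biological and name no separate cultures, so their spread may be partly technical.

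Coordinates are 1-based in ce11, matched to the RefSeq sequence of WBcel235, and genes are from Ensembl release 115. The 14 mitochondrial peaks were left out. The intron number is that in the longest of those coding transcripts of the host whose intron holds the summit, so members of 1 gene can be numbered in different transcripts. Classes were compared by two-sided Fisher's exact test over peaks, adjusted by Benjamini-Hochberg over 6 comparisons with a threshold of 0.05. Intervals are Wilson (shares), Woolf (odds ratios) and order statistics (medians), at 95%. Sequence of 178 bp on each side of every summit was compared by blastn 2.17.0, and peaks joined by alignments of 50 bp or longer with an E-value no higher than 1e-08 formed a family. Windows of neighbouring peaks that overlapped in the genome were not excluded. Python 3.11.15, numpy 2.4.6, scipy 1.17.1 and matplotlib 3.10.9 were used. Functions were tested on simulated data.

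Members and lists were chosen with earlier results of these data known. The rule for named genes took the hosts of the 15 strongest members, the 5 hosts of several members with the highest summed signal, and up to 3 hosts per list. One of these hosts is not reported here. The sequences were the 8 strongest members outside chromosome I that aligned to no other peak and 3 with several boxes. The convergent-pair class, its sequences, the motifs and the X chromosome were chosen after their values were seen, as were vab-23 and T27E7.9. Other alternatives were other box distances, promoter windows, exon definitions, pair distances and signal thresholds.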

Additional observations from a re-analysis of the deposited data

How the results depend on the processing

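Of the 6 comparisons, the extended box kept its direction and passed the threshold under all 11 alternatives tried, at 32.3% to 63.6% of members. The number of members moved to 178 in the upper 50% of the list by signal, 155 without peaks aligned to another peak and 205 without convergent pairs 35 to 40 bp apart, an alternative chosen after seeing the data; these alternatives take peaks out by construction. The share in the upper 50% no longer passed with a box within 100 bp (50.5%), without aligned peaks (45.8%) or without convergent pairs (47.3%). The share strong in both replicates passed with a box within 25 bp (81.8%), with exons of any annotated transcript (81.7%), and with summits within 100 bp (78.9%) or 50 bp (71.9%). The first-intron share turned to slightly above that of the peaks without CCAAT with a box within 100 bp (33.3%), without aligned peaks (39.4%) and without convergent pairs (34.6%). The share masked or aligned fell to 10.97% without aligned peaks, where masking alone remains and the direction turned, and did not pass without convergent pairs (42.4%). The share near a small non-coding gene did not pass without aligned peaks (22.6%). The median signal moved to 187 in the upper 50%, 103 without aligned peaks and 105 without convergent pairs. Each replicate was also set aside by keeping only peaks among the strongest regions of the other replicate. The signal was still that of the peak list, made from both replicates. The median was then 134 over 280 members strong in replicate 2, and 131 over 284 strong in replicate 1. These settings choose peaks by strength, so they cannot show dependence on a replicate. For the upper 50% on itself, and for the share strong in both replicates with a replicate set aside in this way, no value was given, since the setting repeats the result. No paired analysis was possible because there is 1 group. The cause of these changes was not tested. Unknown depth limits any statement on regions outside the list.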

Other observations

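Convergent pairs of boxes 35 to 40 bp apart were also counted in other classes of peaks. Within 150 bp of the summit, 35.3% of the intron members held one, against 102 of 189 intron peaks with a 32-bp pair (53.97%), of which 186 belonged to the family of 555 peaks. They were within 150 bp of the summit in 59 of 355 intergenic peaks with a box and no 32-bp pair (16.6%) and in 17 of 266 such peaks at the promoter of a single gene (6.39%). These shares were read after the pattern had been seen in introns and were not tested.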
